A study of Homo sapiens with 12 samples.

Results

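Ribosome biogenesis was described here through 49 genes whose products transcribe, modify, cut and assemble ribosomal RNA in the nucleolus. They were taken by gene symbol from the 40929 symbols of the count tables, and all 49 were present and passed the filter on low counts, as did 15104 genes in all. The cells were MDA-MB-231, an established human line from a triple-negative breast cancer, labelled epithelial and wild type, and every result therefore comes from 1 line. LGCAR cells were held in medium with 5 mM glucose and 25 μM cariporide, a drug that blocks the sodium-hydrogen exchanger NHE1. LG cells had 5 mM glucose and no drug, CAR cells 10 mM glucose with 25 μM cariporide, and NG cells 10 mM glucose and no drug. All were treated for 48 h and kept in RPMI with fetal bovine serum, and each group had 3 libraries of total RNA. The design asks how the lower glucose, the drug and their combination change the transcripts of these genes.

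Ribosomes are built in the nucleolus. RNA polymerase I copies the repeated ribosomal RNA genes into a long precursor, and small nucleolar ribonucleoproteins (snoRNPs) guide its chemical modification. Box C/D snoRNPs carry the methyltransferase fibrillarin and box H/ACA snoRNPs the pseudouridine synthase dyskerin. Processing factors then cut and fold the precursor into the small and the large subunit. The genes were therefore grouped by step into 7 of RNA polymerase I transcription, 8 of snoRNPs, 16 of small-subunit processing, 12 of large-subunit processing and 6 nucleolar proteins with several roles. Many such genes are known targets of MYC, which binds the E-box, the palindrome CACGTG.

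The window of 250 bases before to 50 after the transcription start, from RefSeq on GRCh38.p14, was available for 42 of the 49 genes. Of these 42 genes 20 (47.6%) held CACGTG in at least 1 window, against 1407 of 11630 tested genes with a window (12.1%). Of the 113 further genes of the same pathway described below, 26 of 98 with a window (26.5%) held it. Counted by window, the shares were 21 of 53 (39.6%) for the members and 1516 of 16669 (9.10%) for the tested genes. The median GC content was 64.3% in both sets. Among the steps the E-box was found in 0 of 5 RNA polymerase I genes, 3 of 6 snoRNP genes, 9 of 15 small-subunit genes, 4 of 10 large-subunit genes and 4 of 6 nucleolar genes. Of the 23 sites in member windows 19 lay within 50 bases of the start. The windows of FBL, UTP4 and PES1 are printed because these genes of 3 steps were lower in LGCAR and hold the motif, and that of NOP56 because it changed in 3 comparisons and lacks it. Each runs 5′ to 3′ on the strand of the gene, with the E-box in capitals. The first E-box base lies 6 bases after the start base in FBL (minus strand, chr19:39846330-39846629), 16 before it in UTP4 (plus strand, chr16:69132399-69132698) and 13 after it in PES1 (minus strand, chr22:30591861-30592160). The NOP56 window is on the plus strand at chr20:2652382-2652681.
FBL: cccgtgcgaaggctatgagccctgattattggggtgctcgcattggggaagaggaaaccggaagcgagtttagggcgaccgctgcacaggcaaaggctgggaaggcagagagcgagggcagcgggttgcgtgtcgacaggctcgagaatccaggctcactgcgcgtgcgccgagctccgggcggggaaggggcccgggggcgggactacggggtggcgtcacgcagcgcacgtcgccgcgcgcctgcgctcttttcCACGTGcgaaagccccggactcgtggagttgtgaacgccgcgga
UTP4: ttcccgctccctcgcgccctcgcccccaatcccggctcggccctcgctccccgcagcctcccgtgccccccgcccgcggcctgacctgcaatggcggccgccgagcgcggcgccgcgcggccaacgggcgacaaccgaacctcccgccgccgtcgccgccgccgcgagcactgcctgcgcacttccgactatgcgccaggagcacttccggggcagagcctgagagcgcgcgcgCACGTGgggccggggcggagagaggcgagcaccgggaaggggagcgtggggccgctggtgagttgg
PES1: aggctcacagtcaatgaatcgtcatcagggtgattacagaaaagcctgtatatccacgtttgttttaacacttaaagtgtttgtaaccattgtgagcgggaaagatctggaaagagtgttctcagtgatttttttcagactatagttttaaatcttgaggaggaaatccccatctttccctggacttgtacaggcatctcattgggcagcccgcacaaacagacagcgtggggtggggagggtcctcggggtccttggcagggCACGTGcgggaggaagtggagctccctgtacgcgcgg
NOP56: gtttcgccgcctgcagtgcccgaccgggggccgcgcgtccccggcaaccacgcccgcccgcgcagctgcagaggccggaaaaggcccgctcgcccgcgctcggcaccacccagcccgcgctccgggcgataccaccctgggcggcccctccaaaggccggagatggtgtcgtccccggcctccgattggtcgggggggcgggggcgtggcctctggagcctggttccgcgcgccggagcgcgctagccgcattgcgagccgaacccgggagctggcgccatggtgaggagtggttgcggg

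The library totals lay between 18069004 and 24837409 counts, and the lowest count of any member in any library was 185, for NOC4L. Marker levels are in CPM, counts scaled to a common library total. The CPM of TXNIP, the members and the further pathway genes were also scaled by TMM, a factor for each library. KRT8 (424 to 509 CPM) and VIM (1635 to 1877 CPM) were high in all 12 libraries. Of the epithelial markers EPCAM was low (8.90 to 13.8 CPM) and CDH1, the epithelial cadherin, was nearly absent (at most 2.44 CPM). Of the receptors that define triple-negative tumours ESR1 was at most 0.190 CPM and PGR had no count, while ERBB2 lay between 55.7 and 65.2 CPM. Of the markers of other cells CD3E had no count, PTPRC was at most 0.334 CPM and COL1A1 lay between 6.59 and 9.66 CPM. TXNIP, whose transcription is known to follow glucose, averaged 86.2 ± 7.55 CPM in LGCAR, 46.4 ± 5.07 in LG, 253 ± 9.33 in CAR and 264 ± 12.5 in NG (SD, n = 3 each), which separates the labelled glucose levels without overlap. Cytosolic ribosomal RNA took 9.32 to 11.5% of the counts in LGCAR, 7.91 to 9.06% in LG, 7.10 to 8.53% in CAR and 7.83 to 11.2% in NG, with the highest shares in LGCAR 3 and NG 1. Both libraries were left out together in a fit given below. That fit also has fewer libraries in LGCAR and NG, so it cannot show the part of ribosomal RNA in the results.

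In LGCAR against NG a part of the ribosome biogenesis genes fell, by small amounts. Of the 49 genes 17 fell (34.7%) and 0 rose, where 4.12% of all tested genes fell and 4.63% rose (edgeR quasi-likelihood test, Benjamini-Hochberg adjusted p under 0.05 over 15104 genes). Their median log2 fold change was -0.16, against 0.01 over all tested genes, and 45 of 49 lay below 0, beside 48.3% of all tested genes. The called changes ran from -0.43 for NOP16 to -0.17 for NOC2L, losses of 25.7% and 10.9%. Leaving out NG 1 gave 20 calls, NG 2 gave 8, NG 3 gave 2, LGCAR 1 gave 3, LGCAR 2 gave 5 and LGCAR 3 gave 7, and leaving out NG 1 and LGCAR 3 together gave 6. The share of all tested genes that fell moved as well, to 5.59% when NG 1 was left out, 0.949% for NG 2, 0.470% for NG 3, 0.592% for LGCAR 1, 1.03% for LGCAR 2, 1.05% for LGCAR 3 and 0.905% for that pair. The median of the members in these fits stayed between -0.18 and -0.14. Counts are relative to the library, so that fewer cells of a type and less RNA per cell cannot be told apart. The groups share libraries between comparisons: of those between a pair of groups NG enters 3 and LGCAR 3, and both enter the interaction.

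**Figure D1:**
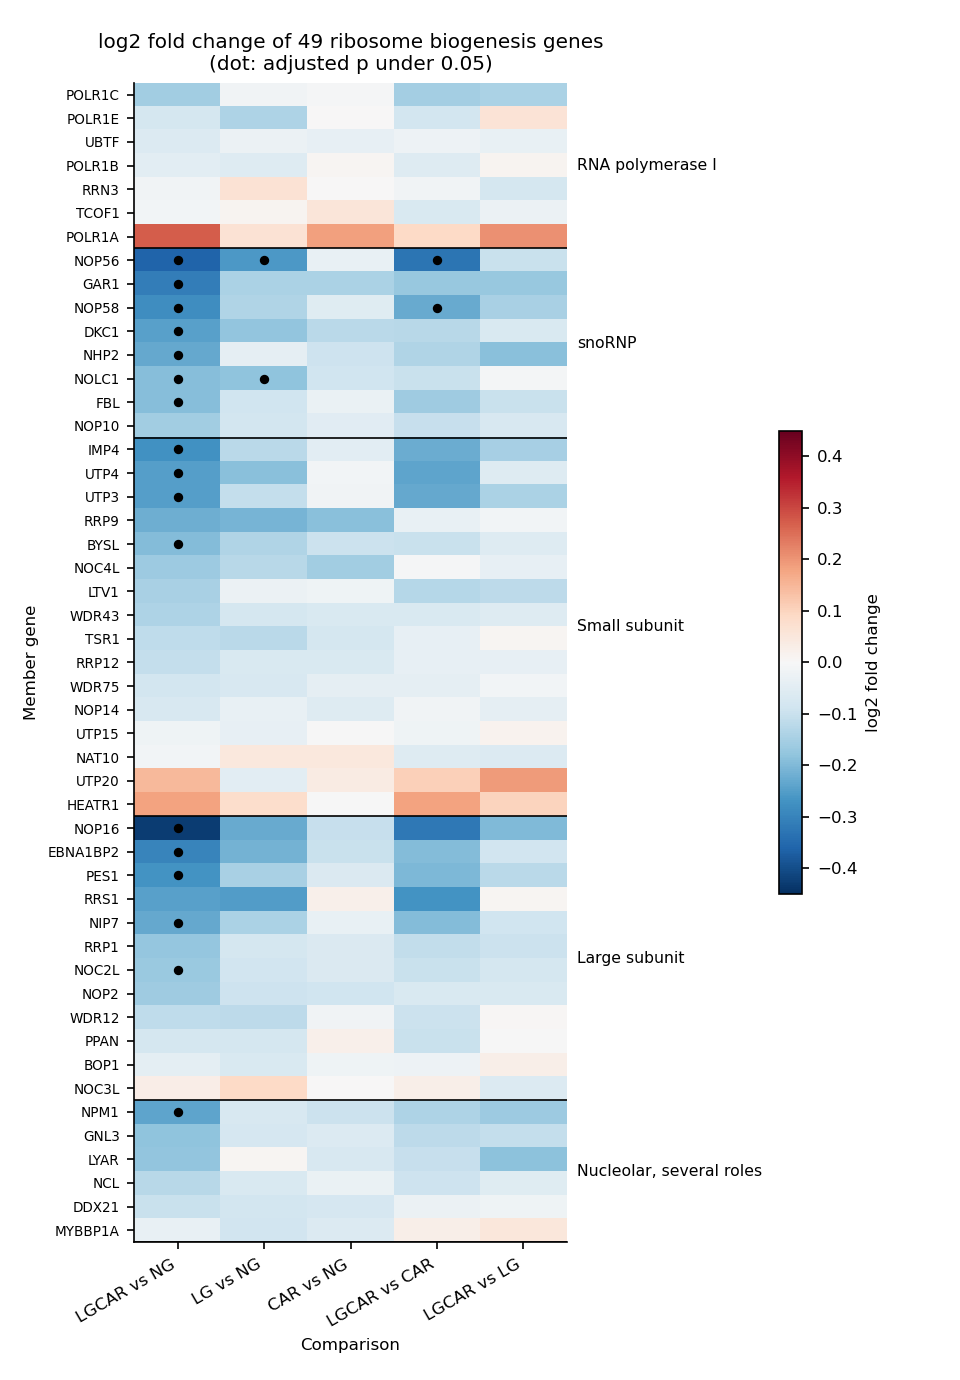
Log2 fold change of each of the 49 genes (rows, grouped by step) in 5 comparisons (columns); blue is lower and red higher in the group named first, and a dot marks an edgeR adjusted p under 0.05. The LGCAR vs NG column holds 17 dots, LG vs NG and LGCAR vs CAR hold 2 each, and the other columns none.

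Of the 8 snoRNP genes 7 fell in LGCAR against NG. The median log2 fold change of the step was -0.24, the lowest of the 5 steps, and the eighth, NOP10, a small box H/ACA protein, was at -0.16 (SE 0.0955, edgeR adjusted p = 0.294). GAR1, the box H/ACA protein that helps release the modified RNA, stood at 32.6, 33.5 and 32.9 CPM in LGCAR, 36.6, 36.5 and 38.2 in LG, 38.1, 35.5 and 37.6 in CAR and 41.1, 40.7 and 41.2 in NG. All LGCAR libraries lay below all others, all NG libraries above all others, and LG and CAR overlapped in between. The log2 fold change in LGCAR against NG was -0.31 (SE 0.0518, edgeR adjusted p = 0.00438), and the call held in each of the 6 fits that left out 1 library.

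NOP56, a core protein of box C/D snoRNPs, had 98.5, 93.9 and 96.6 CPM in LGCAR, 96.3, 100.7 and 113 in LG, 125, 118 and 119.5 in CAR and 117, 121 and 133 in NG. The 2 groups with 5 mM glucose lay below the 2 with 10 mM, with no overlap. Its log2 fold change was -0.36 in LGCAR against NG (SE 0.0631, edgeR adjusted p = 0.00530), a loss of 22.1%, and this call too held with each library left out. NOP58, its partner in the same particle, had 68.6, 66.7 and 66.9 CPM in LGCAR, 69.95, 75.5 and 78.1 in LG, 81.3, 76.8 and 78.4 in CAR and 79.4, 79.4 and 86.7 in NG. LGCAR was below all other libraries, and the LG and CAR values overlapped. It fell by 0.28 on the log2 scale in LGCAR against NG (SE 0.0555, edgeR adjusted p = 0.00968), and missed the threshold without NG 3 (adjusted p = 0.0651).

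DKC1, the pseudouridine synthase of box H/ACA snoRNPs, stood at 95.8, 98.4 and 96.8 CPM in LGCAR, 104, 99.3 and 102 in LG, 104, 104 and 109.7 in CAR and 109.4, 118 and 118 in NG. LGCAR lay below every other library, LG below every NG library, and CAR overlapped both LG and NG. Its log2 fold change in LGCAR against NG was -0.25 (SE 0.0485, edgeR adjusted p = 0.00968), with the call lost without NG 3 or LGCAR 1 (adjusted p at most 0.0595). The remaining called snoRNP genes were NHP2 of the H/ACA core with -0.23, NOLC1, a chaperone of snoRNPs, with -0.19, and FBL, the methyltransferase fibrillarin, with -0.19. Of the exons of NHP2 27.4% overlap a gene on the other strand, and the sources used here do not say whether the counting used the strand, so its value is uncertain. The calls of NHP2, NOLC1 and FBL ended in 5 of the 6 fits with 1 library left out, all but that without NG 1 (adjusted p at most 0.138, 0.0800 and 0.185 in this order). Of the 8 genes, leaving out NG 1 gave 7 calls, NG 3 gave 2 and LGCAR 1 gave 3, while NG 2, LGCAR 2 or LGCAR 3 each gave 4.

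**Figure D2:**
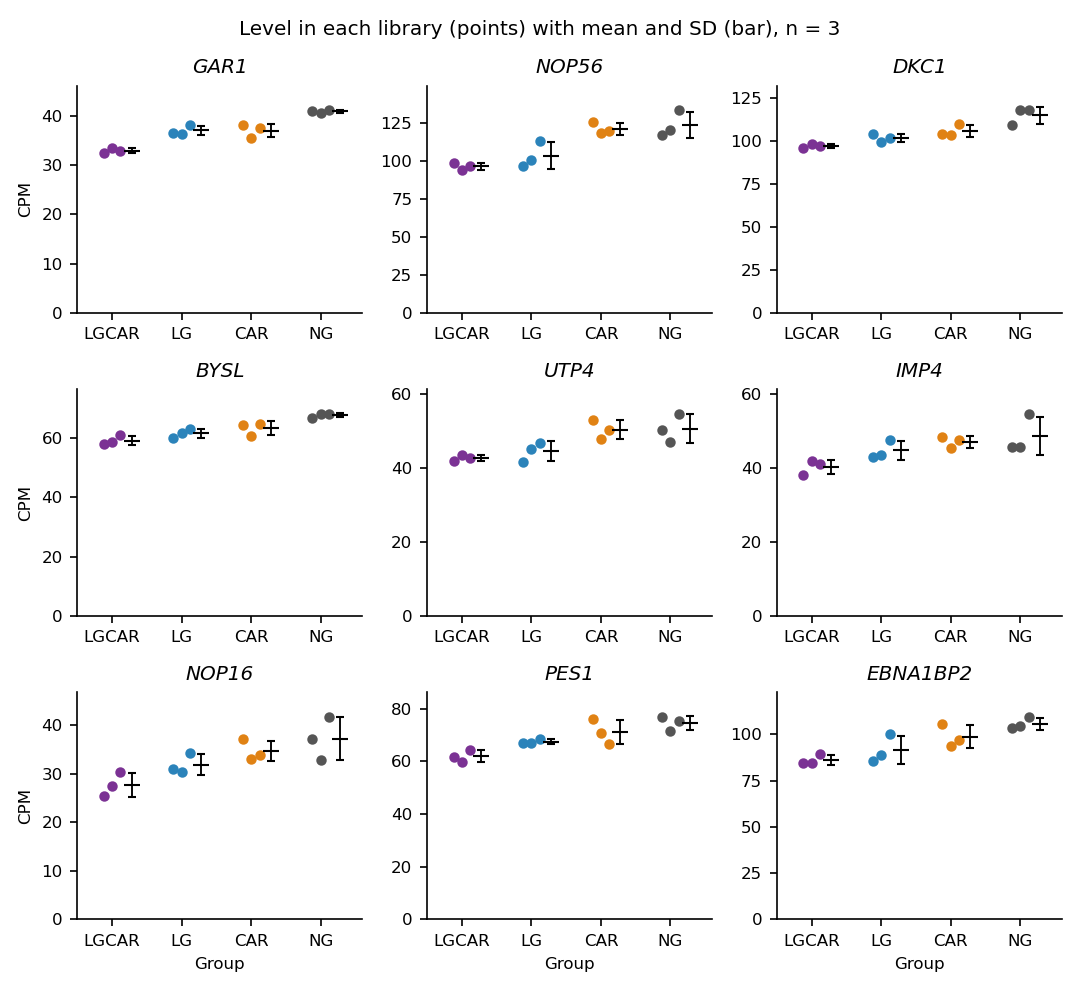
Level in CPM (counts scaled by TMM to the library total; linear axis from 0) of 9 genes in each of the 12 libraries as points, with the mean and SD of each group (n = 3) beside them. For GAR1 the LGCAR libraries lie between 32.6 and 33.5 CPM and the NG libraries between 40.7 and 41.2 CPM.

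Large-subunit processing had the member with the largest loss. Of 12 genes 5 fell in LGCAR against NG (NOP16, EBNA1BP2, PES1, NIP7 and NOC2L), with a median of -0.17 for the step. NOP16, a factor of the early large-subunit precursor, had 25.4, 27.5 and 30.3 CPM in LGCAR, 30.9, 30.4 and 34.3 in LG, 37.1, 33.0 and 33.9 in CAR and 37.1, 32.8 and 41.7 in NG. LGCAR was below every CAR and NG library, and its highest value came within 0.1 CPM of the lowest in LG. The log2 fold change was -0.43 against NG (SE 0.0881, edgeR adjusted p = 0.0121), and the call ended without NG 3 or LGCAR 1 (adjusted p at most 0.0740). Of its exon length 12% overlaps a gene on the other strand.

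EBNA1BP2, which binds the early large-subunit particle, stood at 84.7, 84.3 and 89.4 CPM in LGCAR, 85.6, 88.8 and 99.9 in LG, 106, 93.5 and 96.8 in CAR and 103.5, 104 and 109.5 in NG. LGCAR and LG overlapped and both lay below NG. In LGCAR against NG its log2 fold change was -0.30 (SE 0.0627, edgeR adjusted p = 0.0131), with 18.8% of its exons shared with a gene on the other strand. PES1, which with BOP1 and WDR12 forms the PeBoW complex, had 61.8, 59.9 and 64.3 CPM in LGCAR, 66.9, 66.9 and 68.5 in LG, 76.1, 71.0 and 66.8 in CAR and 77.0, 71.6 and 75.2 in NG. LGCAR lay below all other libraries, and LG below all NG libraries. Its log2 fold change against NG was -0.27 (SE 0.0560, edgeR adjusted p = 0.0128). Both calls ended without NG 3, LGCAR 1 or LGCAR 2, with adjusted p at most 0.0733 for EBNA1BP2 and 0.0618 for PES1.

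The partners of PES1 did not pass the test: WDR12 was at -0.11 (SE 0.0494, edgeR adjusted p = 0.141) and BOP1 at -0.04 (SE 0.0570, adjusted p = 0.655). NIP7 fell by 0.23 and NOC2L by 0.17 on the log2 scale, and each lost its call in all fits with 1 library left out but that without NG 1 (edgeR adjusted p at most 0.169 and 0.133). Of the exons of NIP7 20.2% overlap a gene on the other strand. RRS1 (-0.25), RRP1 (-0.17), the methyltransferase NOP2 (-0.16), PPAN (-0.08) and NOC3L (0.03) were not called. Exons shared with another gene on the same strand make up 54.4% of NOP2, 56.0% of PPAN and 11.4% of RRS1, so their counts are uncertain. Without NG 1 the step had 5 genes called, without NG 2 or LGCAR 3 it had 3, without LGCAR 2 it had 1, and without NG 3 or LGCAR 1 it had 0.

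In small-subunit processing 4 of 16 genes fell in LGCAR against NG, BYSL, UTP4, IMP4 and UTP3, with a median of -0.13 for the step. BYSL, needed for late steps of small-subunit assembly, had 58.0, 58.7 and 61.0 CPM in LGCAR, 60.1, 61.9 and 63.1 in LG, 64.5, 60.8 and 65.0 in CAR and 66.9, 68.4 and 68.0 in NG. NG lay above every other library, and the LGCAR, LG and CAR values overlapped. The log2 fold change was -0.20 (SE 0.0489, edgeR adjusted p = 0.0262).

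UTP4, a subcomplex member of the small-subunit processome, stood at 41.8, 43.6 and 42.6 CPM in LGCAR, 41.5, 45.1 and 46.7 in LG, 52.8, 47.7 and 50.2 in CAR and 50.3, 46.9 and 54.7 in NG. Both 5 mM groups lay below both 10 mM groups, with LG 3 within 0.3 CPM of NG 2. Its log2 fold change in LGCAR against NG was -0.25 (SE 0.0654, edgeR adjusted p = 0.0315). IMP4, a protein of the U3 snoRNP, had 38.1, 41.7 and 41.0 CPM in LGCAR, 43.0, 43.4 and 47.6 in LG, 48.3, 45.2 and 47.4 in CAR and 45.5, 45.5 and 54.6 in NG. LGCAR was below all others, and NG 3 stood above the remaining libraries. Its log2 fold change against NG was -0.27 (SE 0.0723, edgeR adjusted p = 0.0323).

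UTP3, another processome protein, fell by 0.25 on the log2 scale. Each of these 4 calls ended in most fits with 1 library left out: BYSL, IMP4 and UTP3 in all but that without NG 1, and UTP4 in all but those without NG 1 or NG 2 (edgeR adjusted p at most 0.107, 0.173, 0.188 and 0.163 in this order). The step had 6 genes called without NG 1, 1 without NG 2 and 0 without each of the other 4. The 12 that were not called ran from -0.22 for RRP9 (SE 0.0702, edgeR adjusted p = 0.0580), the U3-specific protein, to 0.18 for HEATR1. Between them lay NOC4L (-0.16), LTV1 (-0.14), WDR43 (-0.14), TSR1 (-0.12), RRP12 (-0.11), WDR75 (-0.08), NOP14 (-0.07), UTP15 (-0.02), the 18S acetyltransferase NAT10 (-0.01) and UTP20 (0.15). LTV1 shares 27.7% of its exons with a gene on the same strand, and HEATR1 (23.2%), TSR1 (20.7%) and NOP14 (17.1%) with a gene on the other.

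The 6 nucleolar proteins with several roles include the most abundant transcripts of the set. Per kb of exon in NG, NPM1 (365 CPM per kb) and NCL (105) were highest among the 49, and UTP15 (4.15) and WDR12 (5.05) lowest. NPM1, the ribosome and histone chaperone nucleophosmin, was the 1 gene of the 6 that fell in LGCAR against NG. It had 1166, 1215 and 1178 CPM in LGCAR, 1234, 1304 and 1445 in LG, 1388, 1268 and 1261 in CAR and 1311, 1364 and 1515 in NG. LGCAR was below every other library, and LG, CAR and NG overlapped. Its log2 fold change was -0.24 (SE 0.0666, edgeR adjusted p = 0.0397), and the call was lost in all fits with 1 library left out (adjusted p at most 0.192) but that without NG 1.

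GNL3, the nucleolar GTPase nucleostemin, had 131, 137 and 131 CPM in LGCAR, 139, 134 and 156 in LG, 151, 137.5 and 144 in CAR and 143, 149 and 159.6 in NG, with LGCAR below NG. At -0.18 (SE 0.0611, edgeR adjusted p = 0.0680) it missed the threshold, and passed it without NG 1 (adjusted p = 0.0424). LYAR, a nucleolar zinc-finger protein, had 61.3, 60.3 and 60.7 CPM in LGCAR, 65.6, 66.9 and 74.9 in LG, 70.1, 61.9 and 63.7 in CAR and 69.8, 68.1 and 68.1 in NG. LGCAR lay below all others, with -0.18 against NG (SE 0.0600, edgeR adjusted p = 0.0696). The last 3 of the 6 were nearer to 0, the nucleolin gene NCL at -0.12, the helicase gene DDX21 at -0.10 and MYBBP1A at -0.03.

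None of the 7 genes of RNA polymerase I transcription was called in LGCAR against NG, and their median was -0.05. At an unadjusted p under 0.05 edgeR counted 1 of them higher and 0 lower, beside 2380 higher and 1989 lower among all genes. DESeq2 and limma-voom called 0 of the 7 as well. POLR1A, the largest catalytic subunit, stood at 129.5, 117 and 127 CPM in LGCAR, 121, 114 and 88.7 in LG, 99.1, 128 and 125 in CAR and 112, 101 and 97.0 in NG. It was higher in each LGCAR library than in each NG library, at 0.27 (SE 0.121, edgeR adjusted p = 0.162), and LG and CAR each spread over both ranges. It was called in an edgeR fit of the LGCAR and NG libraries alone (adjusted p = 0.00165).

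POLR1C, a subunit shared with RNA polymerase III, had 25.4, 25.5 and 28.1 CPM in LGCAR, 26.2, 28.8 and 32.3 in LG, 29.6, 27.8 and 30.4 in CAR and 28.4, 28.7 and 31.1 in NG. LGCAR was lower than NG in all libraries, at -0.16 (SE 0.0771, edgeR adjusted p = 0.186). POLR1E, which helps the polymerase start, had 34.6, 35.9 and 34.7 CPM in LGCAR, 34.9, 32.1 and 33.9 in LG, 36.2, 35.2 and 39.9 in CAR and 35.3, 38.5 and 37.2 in NG. LGCAR overlapped NG, at -0.08 (SE 0.0616, edgeR adjusted p = 0.424), and LG lay below all CAR and NG libraries. UBTF, which binds the ribosomal RNA genes, was at -0.06, POLR1B at -0.05, the initiation factor RRN3 at -0.01 and TCOF1 at -0.01.

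**Figure D3:**
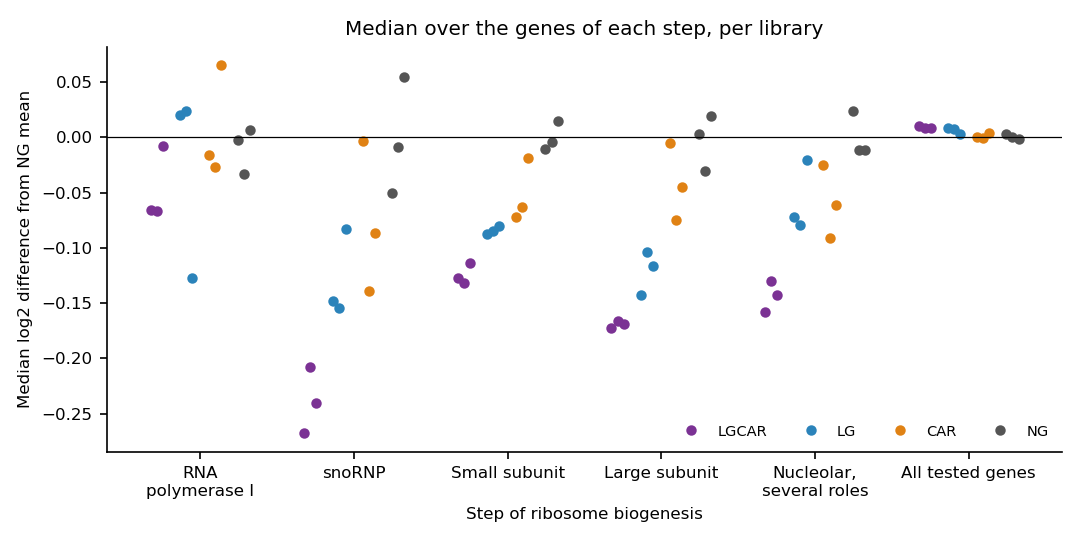
Median over the genes of each step of the log2 difference from the NG mean, 1 point for each of the 12 libraries (y axis in log2 units; groups side by side within a step). The 3 LGCAR libraries lie at -0.27, -0.21 and -0.24 for snoRNP genes and at -0.07, -0.07 and -0.01 for RNA polymerase I genes, and all 12 libraries lie between 0.00 and 0.01 for all tested genes.

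Over the 49 genes the median log2 difference from the NG mean was -0.15, -0.14 and -0.13 in the LGCAR libraries, -0.11, -0.10 and -0.09 in LG, -0.02, -0.07 and -0.04 in CAR and -0.01, -0.01 and 0.01 in NG. The group ranges of this median did not overlap, LGCAR lowest and NG highest, but CAR and NG nearly met. CAR 1 stood at -0.0165 and NG 2 at -0.0143. Each gene was set to its own mean in NG, which holds the NG values near 0. For large-subunit genes it was -0.17 in each LGCAR library, and -0.14, -0.10 and -0.12 in LG. For RNA polymerase I genes the LG libraries, at 0.02, 0.02 and -0.13, spread on both sides of NG. These medians are a description, and no test was made on them.

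Counts given to the genes of the ribosomal RNA precursor were a further measure, chosen after the data were seen, from the summed rows of the near-identical copies. The mature ribosomal RNAs are cut from this precursor, so these counts cannot be taken as precursor alone. The sum made up 0.101 to 0.146% of the counts in LGCAR (0.117 ± 0.0253%, SD, n = 3), 0.101 to 0.108% in LG (0.104 ± 0.00387%), 0.0712 to 0.0768% in CAR (0.0746 ± 0.00303%) and 0.0751 to 0.117% in NG (0.0951 ± 0.0213%). In NG 1, NG 2 and NG 3 it was 0.117, 0.0929 and 0.0751%, beside 11.2, 9.45 and 7.83% for all cytosolic ribosomal RNA. LGCAR 3 was the highest library in both shares, and the CAR libraries did not keep the same order in both. LGCAR and LG overlapped NG, and both lay above CAR. Whether ribosomal RNA was removed before sequencing is not said in the labels, the share is not a rate of synthesis, and no test was made.

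With the lower glucose and no drug few members passed the test. In LG against NG 2 of 49 members fell, NOP56 and NOLC1, and 0 rose, where 0.728% of all tested genes fell and 1.0% rose. The median was -0.08 and 42 of 49 lay below 0, beside 48.1% of all tested genes. At an unadjusted p under 0.05 edgeR counted 16 members lower (32.7%) and 0 higher, beside 1068 lower (7.07%) and 1235 higher among all genes. The log2 fold change was -0.26 for NOP56 (SE 0.0627, edgeR adjusted p = 0.0457). NOLC1 stood at 199.9, 194 and 189 CPM in LGCAR, 199, 189.9 and 197 in LG, 212, 201 and 212 in CAR and 225, 221 and 220.0 in NG. Both 5 mM groups lay below both 10 mM groups, and NG lay above CAR. Its change in LG was -0.18 (SE 0.0443, edgeR adjusted p = 0.0474). Leaving out LG 3 gave 3 calls, NG 1 gave 2, and NG 2, NG 3, LG 1 or LG 2 gave 0, while 0.196 to 0.995% of all tested genes fell in these fits. NOP56 kept its call only without LG 3 or NG 1 (adjusted p at most 0.230 in the others), and NOLC1 only without LG 3 (at most 0.214). The snoRNP genes had a median of -0.14. In the other steps edgeR called 0 genes, and the medians were -0.02 for RNA polymerase I, -0.08 for small-subunit, -0.11 for large-subunit and -0.07 for nucleolar genes.

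The drug at 10 mM glucose gave no call. In CAR against NG 0 of 49 members and 0% of all tested genes were called lower, and likewise 0 and 0% higher, with edgeR, and DESeq2 and limma-voom called no member either. At an unadjusted p under 0.05 edgeR counted 3 members lower and 0 higher, beside 340 lower and 344 higher among all genes. The median was -0.05, and 39 of 49 lay below 0, beside 49.5% of all tested genes. The smallest p-values belonged to GAR1, at -0.14 (SE 0.0505, edgeR adjusted p = 0.894), and RRP9, at -0.19 (SE 0.0686, adjusted p = 0.894). RRP9 had 23.8, 23.7 and 23.6 CPM in LGCAR, 21.8, 24.2 and 25.7 in LG, 24.9, 23.5 and 24.3 in CAR and 26.03, 29.8 and 27.1 in NG. Its NG libraries lay above all others, and the other groups overlapped.

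With the drug present in both groups, both members that fell at the lower glucose were core proteins of box C/D snoRNPs. In LGCAR against CAR NOP56 and NOP58 fell, 2 of 49, and 0 rose, where 0.675% of all tested genes fell and 0.973% rose. The median was -0.10, and 44 of 49 lay below 0, beside 48.4% of all tested genes. At an unadjusted p under 0.05 edgeR counted 17 members lower (34.7%) and 0 higher, beside 1206 lower (7.98%) and 1450 higher among all genes. NOP56 changed by -0.33 (SE 0.0630, edgeR adjusted p = 0.0154), a loss of 20.3%, and NOP58 by -0.23 (SE 0.0553, adjusted p = 0.0493). Without CAR 1 or CAR 2 the number called was 1, which was NOP56, and without CAR 3, LGCAR 1, LGCAR 2 or LGCAR 3 it was 0, while 0.104 to 0.497% of all tested genes fell in these fits. The highest adjusted p in these fits was 0.0957 for NOP56 and 0.172 for NOP58. With each library's ribosomal RNA percentage as a covariate it was 0 too, beside 9 lower of all tested genes, with NOP56 at -0.20 (edgeR adjusted p = 0.373).

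Adding the drug at 5 mM glucose gave no call among the members. In LGCAR against LG edgeR called 0 of 49 lower and 0 higher, where 0% of all tested genes fell and 0.00662% rose, a share that is the single gene TXNIP, and DESeq2 and limma-voom called no member. At an unadjusted p under 0.05 edgeR counted 7 members lower (14.3%) and 0 higher, beside 846 lower (5.60%) and 955 higher among all genes. The median of the members was -0.06. GAR1, at -0.17 (SE 0.0520, edgeR adjusted p = 0.345), and NHP2, at -0.19 (SE 0.0606, adjusted p = 0.356), had the smallest p-values. NHP2, whose counts are uncertain for the overlap given above, had 53.9, 57.1 and 55.8 CPM in LGCAR, 60.5, 61.0 and 68.6 in LG, 65.2, 59.2 and 58.9 in CAR and 63.1, 65.4 and 66.9 in NG. Its LGCAR libraries lay below all others.

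The interaction, which is the change with the drug at 5 mM glucose minus that at 10 mM, was called for 0 of 49 members in either direction with edgeR, where 0% of all tested genes were lower and 0.00662% higher. None passed an unadjusted p under 0.05, where 240 of all tested genes were lower and 233 higher. DESeq2 and limma-voom called no member, and the median was -0.02. RRP9 was at 0.18 (SE 0.0985, edgeR adjusted p = 0.9999) and NAT10 at -0.11 (SE 0.0736, adjusted p = 0.9999). NAT10 had 69.3, 71.9 and 67.7 CPM in LGCAR, 74.3, 74.5 and 68.9 in LG, 69.5, 72.4 and 75.6 in CAR and 69.9, 69.3 and 71.3 in NG, with all groups overlapping. The 17 calls in LGCAR against NG are thus not shown to exceed the sum of the separate changes.

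A further 113 genes of the same pathway that are not among the 49 were all tested. In LGCAR against NG 24 fell (21.2%) and 0 rose, where 4.12% of all tested genes fell and 4.63% rose. The median of the 113 was -0.12, and among the 49 members 34.7% fell. By step 2 of 9 RNA polymerase I genes fell, 2 of 9 snoRNP genes, 10 of 43 small-subunit genes and 10 of 52 large-subunit genes. The medians of these steps were -0.08, -0.15, -0.11 and -0.13 in this order. NIFK, a nucleolar protein of large-subunit processing, averaged 38.3 ± 0.625 CPM in LGCAR and 51.2 ± 2.83 CPM in NG, at -0.42 (SE 0.0732, edgeR adjusted p = 0.00530). PNO1, of late small-subunit assembly, averaged 26.2 ± 1.24 CPM in LGCAR and 33.7 ± 1.55 CPM in NG, at -0.36 (SE 0.0627, edgeR adjusted p = 0.00519). Of the exons of PNO1 10.4% overlap a gene on the other strand. UTP11 of the processome averaged 31.6 ± 0.643 CPM in LGCAR and 40.4 ± 0.928 CPM in NG, at -0.36 (SE 0.0650, edgeR adjusted p = 0.00644). These 3 kept their calls with each library left out (SD, n = 3 each).

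The other genes named by the rule were EIF6 (-0.26), which keeps large subunits from joining early, SNU13 (-0.28) of box C/D snoRNPs, RUVBL2 (-0.19) of their assembly machinery, TAF1D (-0.24) of the RNA polymerase I selectivity factor and POLR1G (-0.25), a polymerase subunit. EIF6 kept its call without NG 1 or LGCAR 3, SNU13, RUVBL2 and TAF1D without NG 1, and POLR1G without NG 3 (edgeR adjusted p at most 0.0968, 0.205, 0.159, 0.138 and 0.138 over all such fits in this order). Of the 113, leaving out NG 1 gave 35 calls, NG 2 gave 3, NG 3 gave 4, LGCAR 1 gave 3, and LGCAR 2 or LGCAR 3 gave 5. In these fits, in this order, 5.59%, 0.949%, 0.470%, 0.592%, 1.03% and 1.05% of all tested genes fell. NIFK and PNO1 also fell in LG against NG, at -0.32 and -0.38 (edgeR adjusted p = 0.0350 and 0.00450), and NIFK and UTP11 in LGCAR against CAR, at -0.38 and -0.27 (adjusted p = 0.0154 and 0.0445). These were 2 of 113 (1.77%) in each comparison, beside 0.728% and 0.675% of all tested genes lower. No gene of the 113 was called in CAR against NG, LGCAR against LG or the interaction with edgeR.

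The fold changes varied with transcript length, as they did over the whole table. In LGCAR against NG Spearman's rho between the log2 fold change and transcript length was 0.66 over the 49 genes and 0.49 over 13283 tested genes with a length, both across genes, which are not independent replicates. Among members under 2 kb 7 of 14 fell, with a median of -0.23, where 7.88% of all genes of that length fell, with a median of -0.11. From 2 to 4 kb 9 of 20 members fell (median -0.17), beside 5.65% of all genes (median -0.04). Above 4 kb 1 of 15 members fell, UTP4 (median -0.05), beside 1.39% of all genes (median 0.11). The long transcripts of POLR1A, HEATR1 and UTP20 were the members above 0 by more than 0.1. The steps differed in length. Of the RNA polymerase I genes POLR1A (12.7 kb), TCOF1 (5.10 kb), POLR1B (5.06 kb) and UBTF (5.00 kb) were above 4 kb. The longest snoRNP gene, NOLC1, had 3.97 kb. The order of the steps was not tested apart from length. With a smooth trend on length and GC content removed from the counts, 19 members were called lower, 5 of 8 snoRNP genes among them, where 6.14% of all tested genes were lower, and POLR1A came to 0.03 (edgeR adjusted p = 0.752). The calls of FBL, NHP2, BYSL and NOC2L were lost in that fit. The relation to length was present in the other comparisons too. For members and all genes with a length, rho was 0.39 and 0.24 in LG against NG and 0.43 and 0.35 in CAR against NG. It was 0.60 and 0.38 in LGCAR against CAR, 0.64 and 0.46 in LGCAR against LG, and 0.38 and 0.23 in the interaction. The counts of members below 0 and at an unadjusted p given above were not adjusted for length. The part of length in the results was not tested further.

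**Figure D4:**
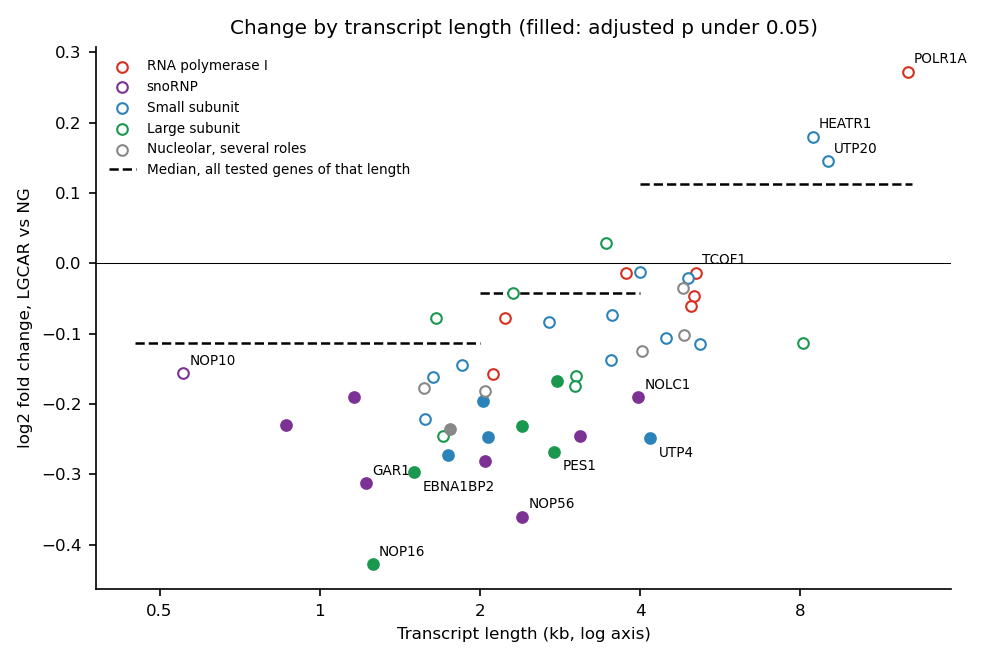
Log2 fold change in LGCAR vs NG (y axis) against transcript length in kb (x axis, log scale) of the 49 genes, coloured by step and filled where the edgeR adjusted p was under 0.05; dashed lines are the medians of all tested genes under 2 kb, from 2 to 4 kb and over 4 kb (-0.11, -0.04 and 0.11). In each length class most members lie below the dashed line.

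The calls were set beside the E-box. Of the 20 members with CACGTG in a window 7 fell in LGCAR against NG, with a median of -0.17, and of the 22 with windows that lacked it 8 fell, with a median of -0.14. Of the 7 members with no window 2 fell, with a median of -0.11. Among all tested genes 4.12% fell, and that share was not split by the motif. Both GAR1, which holds the motif, and NOP56, whose printed window does not, were among the called genes. No test was made, and a window without these letters says nothing of a factor's binding.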

How the data were processed

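The values used were gene counts, 1 deposited table for each of 12 libraries. Per the labels' protocols, Trizol RNA went into libraries of a directional NEBNext Ultra II kit. The submitters' processing notes name fastp, STAR, Salmon, GATK and GRCh38. Which of them made the counts, their versions and the use of strand are not stated in the labels. The labels do not say whether replicate libraries are separate cultures, so p-values may measure technical spread only. The counts of libraries of a group differed by more than sampling noise (chi-square per degree of freedom 2.70 to 22.7).

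Here filterByExpr with the 4 groups left 15104 genes, and edgeR 4.0.16 (R 4.3.3, TMM scaling) with its robust quasi-likelihood test was fitted to all 12 libraries with 1 mean per group. P-values were adjusted by Benjamini and Hochberg over all tested genes in each comparison and called under 0.05. The SE is the log2 fold change divided by the root of F. The biological coefficient of variation was 6.94%. DESeq2 1.42.0 and limma 3.58.1 (voom) were alternatives, beside other scalings, filters, covariates and left-out libraries. The fit with a trend on transcript length and GC content removed was added after the data were seen. Exon lengths and overlaps came from GENCODE 29, in which 11 members share over 10% of their exons with another gene.

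The members, the lists of steps and of 113 further pathway genes were chosen with earlier results of these data known. Values in every library are given for the 3 members of each step with the smallest p in LGCAR against NG, and for the 2 with the smallest p in each other comparison. Of the further genes the 2 of each step with the smallest p were named where called. Figures were drawn with matplotlib 3.10.9.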

Additional observations from a re-analysis of the deposited data

How the results depend on the processing

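In LGCAR against NG the 17 members called became 10 with the replicate block (2.11% of all tested genes lower), 28 (26 lower and 2 higher) with only those groups in the fit (11.3% of all genes lower and 12.99% higher), 6 without both NG 1 and LGCAR 3 (0.905% lower), and 2 to 20 with 1 library left out. The other settings gave 15 to 22, where 3.28 to 7.70% of all tested genes were lower. Each share, here and above, is over the genes tested in that fit, a number that changed with the setting. With no filter it was 25470 genes. DESeq2 gave an adjusted p to 11877 genes in LGCAR against NG, 12461 in LG against NG and 12754 in LGCAR against CAR. With the ribosomal RNA covariate FBL and UTP3 lost their calls (3.28% of all tested genes lower). Of the 17 genes 6 kept their call under all 12 settings that were not such single-library fits. In LG against NG the 2 calls became 0 with library totals, with the replicate block, with only those groups or without both libraries, 1 with no filter, 4 with DESeq2 or with the ribosomal RNA covariate, 5 with the length and GC trend removed, and 0 to 3 with 1 library left out. The share of all tested genes lower was 0.728% in the main fit. It was 0.516% with library totals, 0.358% with the block, 0.300% with only those groups and 0.234% without both libraries. With no filter it was 0.546%, with DESeq2 1.46%, with the covariate 1.75% and with the trend removed 2.86%. With 1 library left out it was 0.196 to 0.995%. In LGCAR against CAR the 2 calls became 6 with library totals, 8 with no filter, 5 with DESeq2, 1 with limma-voom or the replicate block, 0 with the ribosomal RNA covariate or without both libraries, 9 with the trend removed, and 0 to 1 with 1 library left out. The share of all tested genes lower, 0.675% in the main fit, was 1.70% with library totals, 0.927% with no filter and 1.34% with DESeq2. It was 0.550% with limma-voom, 0.344% with the block and 2.42% with the trend removed. With the covariate it was 0.0596%, without both libraries 0.117%, and with 1 library left out 0.104 to 0.497%. With library totals 257 of all genes were lower and 94 higher in that comparison, against 102 and 147 with TMM. The cause was not tested. No named change turned its sign. The deviations from the group mean of libraries with the same number had r from -0.11 to 0.14 over 18 pairs, and of other pairs from -0.20 to 0.23. With 3 libraries a group these values cannot show whether the numbers pair the libraries. The interaction was not run with only its groups, since it uses all 4. Groups of 3 limit the precision of every value.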
